A study of Mus musculus with 6 samples.

Results

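The transcriptome of normal late two-cell embryos was described from the 2 non-injection libraries among the 6 RNA-seq libraries of the study. Membership came from the sample labels, and levels were described for all 53023 genes of the deposited table. Each library was prepared from a pool of 5 embryos at 28 hpi (hours post insemination). The embryos came from oocytes of superovulated ICR mice, fertilised in vitro with ICR sperm, cultured in KSOM medium and freed of the zona pellucida before lysis. They received no mRNA, were the control for embryos injected with PIASy mRNA, and are described here on their own. The labels do not say whether the pools came from separate fertilisations, so the spread between the 2 libraries may be technical. ICR is an outbred strain, and each library is an average over embryos that differ in genotype. With 1 group of 2 libraries no test was made, and the 2 values of a gene are given as library 1 and library 2.

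The two-cell stage of the mouse is when control of development passes from the egg to the embryo. The egg stores a large supply of mRNA and protein, much of which is broken down after meiosis resumes and after fertilisation. The embryo's own genome is transcribed weakly in the zygote and broadly by the late two-cell stage, the step called zygotic genome activation (ZGA). A level measured at 1 time cannot tell RNA stored by the oocyte from RNA newly made by the embryo.

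Library 1 held 1363928 fragments assigned to genes and library 2 held 1130853. A gene with 3 fragments, taken here as the limit of detection, stood at 2.2 CPM (counts scaled to library size) in library 1 and 2.65 in library 2. Levels are in FPKM (fragments per kilobase of exon, scaled to library size), which allows genes of different length to be compared. Shares are in TPM, the same values rescaled to a common sum per library. An FPKM of at least 1 in both libraries was reached by 11148 genes, or 21% of the table, and 8066 of these had at least 10 fragments in both. Of the 21963 protein-coding genes, 8825 (40.2%) reached it. In contrast, 31415 genes had no fragment in either library.

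A small number of genes held much of the signal. The 10 highest genes held 19.8% of TPM in library 1 and 18.4% in library 2, and the 100 highest held 40.1% and 38.1%. Just 255 genes held 50% of the mean TPM. An FPKM of at least 10 in both libraries was reached by 4168 genes, of at least 100 by 585 and of at least 1000 by 37. The most abundant transcripts included mitochondrially encoded RNAs, genes of the oocyte, short genes annotated as processed pseudogenes, and general genes.

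Among the 30 highest genes with at least 10 fragments in each library, 8 were mitochondrially encoded, 16 were nuclear protein-coding genes, 4 were processed pseudogenes and 2 were of other types. Their mean FPKM ranged from 1282 (Calm2, which encodes calmodulin) to 21138 (mt-Cytb, cytochrome b of respiratory complex III). Library 1 was higher for 20 of the 30 genes, and the ratio between the libraries was at most 1.68 (Gm23935).

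**Figure D1:**
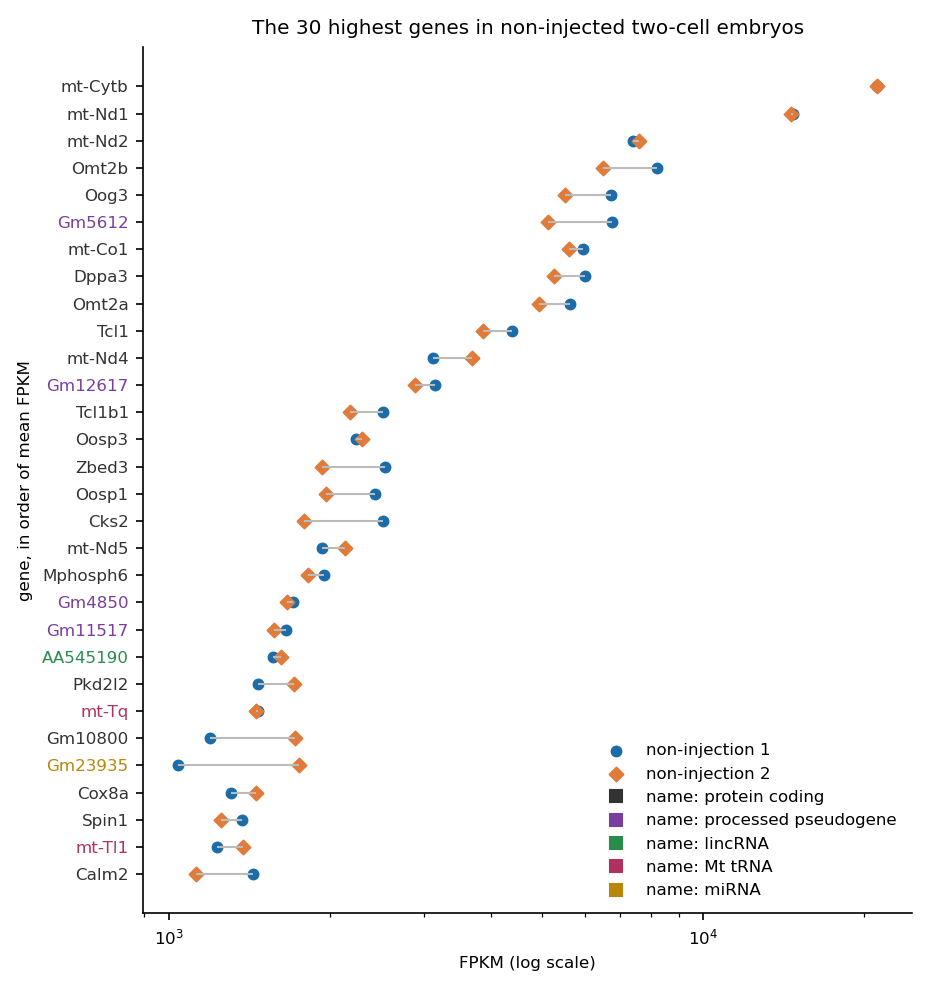
FPKM on a log scale of the 30 genes with the highest mean FPKM and at least 10 fragments in each library, with library 1 as circles, library 2 as diamonds, a grey line joining them, and gene names coloured by type. mt-Cytb stands highest at 21140 and 21136, and Omt2b, at 8211 and 6493, is the highest nuclear gene.

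The highest nuclear gene was Omt2b, named for its expression in oocyte maturation, at 8211 FPKM in library 1 and 6493 in library 2. Its neighbour Omt2a stood at 5625 and 4938. Oog3, an oogenesin of the PRAME family of leucine-rich repeat proteins, reached 6715 and 5518. Library 2 was lower for each of these 3 genes. Dppa3 (also called Stella), which protects the maternal genome from loss of DNA methylation in the zygote, was measured at 6001 and 5264 FPKM. Tcl1, a co-activator of the kinase AKT, stood at 4382 and 3868, and its neighbour Tcl1b1 at 2512 and 2184. These oocyte genes lay above every nuclear respiratory, ribosomal or chaperone gene of the lists described here.

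Further oocyte genes in the first 30 were Oosp3 (2245 and 2297 FPKM) and Oosp1 (2428 and 1971), which encode proteins secreted by the oocyte. Zbed3, a zinc finger protein of the subcortical maternal complex, stood at 2541 and 1937. Cks2, a small subunit of cyclin-dependent kinases required in meiosis, was at 2516 and 1792. Spin1, a reader of histone methylation bound to the meiotic spindle, was at 1373 and 1251. Btg4, the adaptor that brings the CCR4-NOT deadenylase to maternal mRNA, followed outside the first 30 with 1247 and 1168. General genes at this level were Mphosph6, a partner of the RNA exosome (1953 and 1826), Cox8a of respiratory complex IV (1306 and 1459) and Calm2 (1439.9 and 1125). Pkd2l2, a polycystin-like channel gene, stood at 1467 and 1715, and Gm10800, of no known function, at 1196 and 1723. Of the 16 nuclear protein-coding genes of the first 30, 5 (Dppa3, Oosp3, Oosp1, Zbed3 and Spin1) were members of the maternal lists described here.

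The promoters of 2 oocyte genes and 2 genes of the embryonic genome are printed as examples of abundant genes. They were picked by name, and 2 promoters of each kind cannot show how the kinds differ. The sequences are from RefSeq on GRCm38.p6, the patch release of the mm10 build, and run from 250 bases before to 50 bases from the annotated start, on the strand of the gene. Omt2b is at chr9:78327780-78328079, plus strand, and Oog3 at chr4:144162602-144162901, minus strand. Zfp352, a zinc finger gene of the two-cell stage, is at chr4:90218570-90218869, plus strand, and Zscan4d, of a family that maintains telomeres, at chr7:11166099-11166398, minus strand. Capitals mark every match, on either strand, to 4 motifs. These were TATAAA for the TATA box, CCAAT for the box bound by NF-Y, TAATTG as a site of NOBOX-type homeodomains and TAATCC as a site of OTX-type homeodomains.
Omt2b: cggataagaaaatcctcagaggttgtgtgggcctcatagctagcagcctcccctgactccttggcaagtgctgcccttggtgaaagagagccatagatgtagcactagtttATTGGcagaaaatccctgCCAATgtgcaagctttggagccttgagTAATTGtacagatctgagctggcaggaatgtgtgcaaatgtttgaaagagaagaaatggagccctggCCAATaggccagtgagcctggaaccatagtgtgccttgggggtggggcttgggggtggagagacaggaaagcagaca
Oog3: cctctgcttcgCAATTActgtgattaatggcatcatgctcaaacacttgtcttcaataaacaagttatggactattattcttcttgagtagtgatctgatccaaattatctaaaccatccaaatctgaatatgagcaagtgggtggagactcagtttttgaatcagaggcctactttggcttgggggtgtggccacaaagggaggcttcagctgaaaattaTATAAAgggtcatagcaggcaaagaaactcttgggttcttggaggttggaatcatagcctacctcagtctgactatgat
Zfp352: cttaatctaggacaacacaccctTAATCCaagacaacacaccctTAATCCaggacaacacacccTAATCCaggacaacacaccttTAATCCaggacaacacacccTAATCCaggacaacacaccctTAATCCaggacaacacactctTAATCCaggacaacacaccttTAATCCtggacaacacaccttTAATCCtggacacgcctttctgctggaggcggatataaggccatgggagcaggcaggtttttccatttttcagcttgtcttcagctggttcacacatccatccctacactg
Zscan4d: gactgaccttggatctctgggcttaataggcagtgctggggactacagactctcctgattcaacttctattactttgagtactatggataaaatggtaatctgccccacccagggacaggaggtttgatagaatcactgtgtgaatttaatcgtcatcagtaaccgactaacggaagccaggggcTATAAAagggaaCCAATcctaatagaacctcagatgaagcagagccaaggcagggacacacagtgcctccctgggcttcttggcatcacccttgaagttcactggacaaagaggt
Omt2b held 3 matches to CCAAT and 1 to TAATTG, whereas Oog3 held 1 TATAAA and 1 TAATTG. Zscan4d held 1 TATAAA and 1 CCAAT close together before its start. The Zfp352 promoter held TAATCC 9 times, and 1 of the 32851 promoters in the table, its own, held that many. The 9 matches lie in successive near copies of 1 repeated unit, so they are not independent sequences. A match is a description of the letters, not a bound site.

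Over all 32851 promoters, TATAAA was held by 13.6%, CCAAT by 37.4%, TAATTG by 8.0% and TAATCC by 7.06%. Promoters were given for 69 of the 100 highest nuclear protein-coding genes, and these 85 promoters held the motifs at 11.8%, 42.4%, 7.06% and 8.24%. For the maternal lists described next, 45 of 61 genes had promoters, which held them at 7.69%, 43.1%, 4.62% and 4.62%. For the two-cell transient genes 18 of 33 genes had promoters, and of these 19 promoters 15 (78.9%) held CCAAT, 8 (42.1%) TATAAA, 5 (26.3%) TAATCC and 1 (5.26%) TAATTG. The Zscan4 and Usp17l promoters among them belong to families of near copies, so they are not independent sequences, and the shares were not tested.

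Listed genes of the oocyte and listed genes of ZGA were both abundant, with levels that overlapped. The 6 maternal lists together hold 61 genes, with a median of 18.1 FPKM (17.9 in library 1 and 18.3 in library 2). The 5 zygotic lists hold 91 genes, with a median of 30.4 FPKM (28.9 and 32). The median of all 21963 protein-coding genes was 0.64 FPKM. An FPKM of at least 1 in both libraries was reached by 57 of the 61 maternal genes (93.4%) and by 84 of the 91 zygotic genes (92.3%), against 40.2% of protein-coding genes. At 100 FPKM the counts were 10 of 61 and 25 of 91, against 2.2% of protein-coding genes. At 1000 FPKM they were 6 of 61 and 0 of 91. Lists and members were chosen with earlier results of these data known, so these medians and shares describe the listed genes only. Within them, the zygotic lists had the higher median, and the maternal lists held the highest single genes.

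The signal of the maternal lists was concentrated. Their 5 highest genes held 78.9% of the lists' TPM in library 1 and 76.8% in library 2, whereas the 5 highest zygotic genes held 36.4% and 33.6% of theirs. As a whole the 61 maternal genes held 4.21% and 3.80% of all TPM, and the 91 zygotic genes 2.16% and 1.99%. Many genes of the zygotic lists, including the nucleolar, chaperone and some Obox genes, are also stored by the oocyte. The cDNA kit used primes on poly(A) tails, and the part of tail length in the levels of both kinds of list was not tested.

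**Figure D2:**
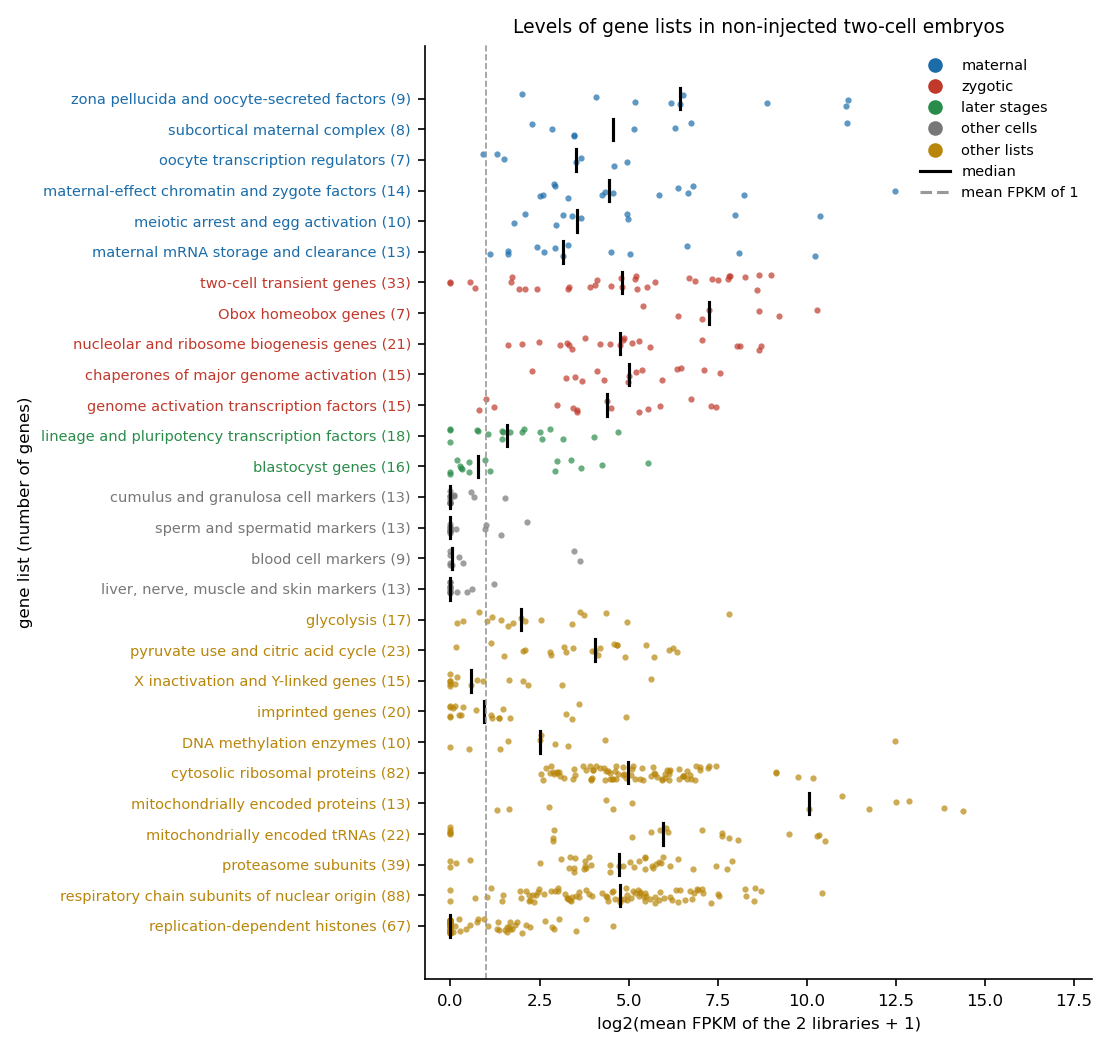
log2(mean FPKM + 1) of each gene in 28 lists, with maternal lists in blue, zygotic in red, later stages in green, other cells in grey and the rest in ochre, a black bar at each median and a dashed line at a mean FPKM of 1. The maternal lists have medians between 8.0 and 86.4 FPKM and reach 5633 (Dppa3), the zygotic lists have medians between 20.1 and 153 and reach 1242 (Obox5), while the lists of other cells sit mostly at or near 0, with Cd74 and Hba-a1 highest among them.

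Within the maternal lists, the egg coat and secreted factors stood highest, with a median of 86.4 FPKM and all 9 genes detected. After Oosp3 and Oosp1 came Bmp15, a growth factor acting on the cumulus cells, at 482 and 461 FPKM and rank 92 of all genes. The coat glycoprotein gene Zp3 stood at 70.9 and 73.5 FPKM (rank 932) and Zp1 at 13.3 and 18.3 (rank 3464). Lowest was Astl, the protease ovastacin that cleaves the coat after fertilisation, at 2.58 and 3.45 FPKM from 9 and 10 fragments.

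The subcortical maternal complex, which lies beneath the egg membrane and is needed for cleavage, was detected for all 8 members with a median of 22.4 FPKM. Below Zbed3 the order ran through Nlrp4f (139 and 72.7 FPKM), Ooep (80.9 and 74.9) and Padi6 (30.4 and 39.1). Tle6 (9.73 and 10.3), Nlrp5 (10.1 and 9.85) and Nlrp2 (5.22 and 7.31) were lower, and Khdc3 was lowest (3.93 and 3.88, from 11 and 9 fragments). Tle6 and Nlrp5 changed order between the libraries. Members of 1 complex thus spanned ranks 15 to 7874.

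Of the 14 maternal-effect chromatin and zygote factors all were detected (median 20.9 FPKM). Dppa3 led, followed by Npm2, the histone chaperone that opens sperm chromatin (254 and 344 FPKM). The oocyte linker histone H1foo was at 123 and 98.7. Dnmt1, the maintenance DNA methyltransferase, was the last of them at 4.17 and 5.15, and Zar1, needed for the zygote to divide, stood at 6.77 and 3.32. Among the 10 meiosis genes (median 10.7 FPKM, all detected) Spin1 and Wee2, the kinase that holds the oocyte in prophase, stood highest, with Wee2 at 233 and 274 FPKM. Mos, the kinase that arrests the egg at metaphase II, stood at 5.57 and 7.93 FPKM from 11 and 13 fragments, and Pde3a, the phosphodiesterase whose activity ends meiotic arrest, was lowest at 2.88 and 1.94.

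Of the 13 genes that store or clear maternal mRNA 11 were detected (median 8.0 FPKM). The 3 highest act in deadenylation, with Btg4 followed by Cnot7 (291 and 258 FPKM) and Cnot6l (97 and 101). Among genes of storage and repression, Eif4enif1, a binding protein of the cap-binding factor, stood at 32.8 and 30.8 FPKM, the mRNA-masking protein Ybx2 at 6.61 and 9.38 and the polyadenylation regulator Cpeb1 at 3.15 and 5.70. The clearance genes Pan2, a deadenylase (5.63 and 4.7), and Zfp36l2, a decay factor (1.87 and 2.25), were also low. Patl2, a translational repressor, was lowest with 3 and 4 fragments. The 7 factors that drive the oocyte programme in the ovary gave a median of 10.4 FPKM and 5 detected. Taf4b was highest (32.6 and 27.1 FPKM), while Figla (1 and 2 fragments) and Sohlh2 (2 and 3) were at the limit of detection.

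Among zygotic genes, the two-cell transient list, of genes transcribed in a pulse at this stage, had 29 of 33 members at 1 FPKM or more in both libraries and a median of 27.4. Tcstv3 was highest, at 464 and 562 FPKM. Usp17lb, a deubiquitinase, stood at 387 and 420.3 and Gm5662, an eIF1A-like gene, at 433 and 346. Zfp352 was at 326 and 293, rank 166 of all genes, and Ddit4l, an inhibitor of mTOR signalling, at 149 and 173. Each of these members differed by less than 1.5 times between the pools, whereas the lower Usp17lc (20.9 and 7.21), Usp17le (5.17 and 1.34) and Tdpoz2 (3.2 and 14.7) differed by over 2 times. Of 25 members with at least 20 fragments in all, 18 were lower in library 2 (median log2 ratio -0.16). Duxf3 (Dux), the homeobox activator of this programme, and Tdpoz5 had no fragment in either library. They share 47% and 100% of their 50-base sequences with other genes, so with unique mapping a count of 0 is uninformative for Tdpoz5 and uncertain for Duxf3.

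Members of 1 family differed widely. Zscan4d stood at 127 and 102 FPKM (394 and 263 fragments) and Zscan4a at 17.1 and 14.4 (53 and 37). In contrast, Zscan4b, Zscan4c, Zscan4e and Zscan4f had between 1 and 8 fragments in each library, and at most 3.93 FPKM. Of the 50-base sequences of Zscan4d 49.6% also occur in another gene, against 85.5 to 90.1% for these members and 63.6% for Zscan4a. Counting kept uniquely mapped reads alone, and 13 of the 33 two-cell transient genes share over 50% of their 50-base sequences, so levels in these families are uncertain. Whether sharing set the order of the members was not tested.

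All 7 Obox homeobox genes were abundant, with a median of 153 FPKM. Obox5 was the highest zygotic-list gene (1542 and 943 FPKM), followed by Obox6 (601 and 595) and Obox8 (441 and 369). Obox1 (193 and 113), Obox3 (148 and 118) and Obox2 (111 and 55.3) followed, and Obox7 was the lowest (44.9 and 38.1). Obox1 and Obox2 share 57.4% and 65.1% of their 50-base sequences, so their levels are uncertain. Each of the 7 was lower in library 2, with a median log2 ratio of library 2 to library 1 of -0.33, whereas the median over 9015 genes with at least 20 fragments was 0.06.

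The 21 genes of the nucleolus and ribosome assembly were all detected, with a median of 25.8 FPKM. Nhp2 (407 and 434) and Nop10 (396 and 404), which belong to the pseudouridylation complex, and Npm1 (300.1 and 255) were highest. Fbl, the rRNA methyltransferase fibrillarin (2.09 and 3.99), and Polr1a, the largest subunit of RNA polymerase I (2.16 and 1.94), were lowest. The 15 chaperone genes were also all detected (median 31.2 FPKM). The chaperonin subunit Cct8 (167 and 206) and Hsp90ab1 (128 and 148) led. The heat-inducible Hspa1b (13.1 and 3.79) and Hspa1a (6.67 and 1.19) were lowest and differed most between the pools, with 50 and 12 fragments and 27 and 4, and share 62.3% and 66.3% of their 50-base sequences.

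Among 15 transcription factors linked to ZGA 12 were detected (median 20.1 FPKM). Gabpa, an ETS factor, was highest at 191 and 158 FPKM, then Dppa4 (152 and 162), Klf17 (104 and 108) and Nfyb (48 and 67.5), a subunit of the CCAAT-binding factor NF-Y. Nr5a2, a nuclear receptor, stood at 13.9 and 7.5. Myc, with 5 and 2 fragments, and Hsf2, with 10 and 8, did not reach 1 FPKM in both libraries.

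Genes of later stages were detected at shares near that of all protein-coding genes (40.2%, median 0.64 FPKM). Of 18 factors of the inner cell mass and trophectoderm 9 (50%) were detected (median 1.98 FPKM), led by Zfp42 (19.9 and 30.6 FPKM) and Yap1 (14.4 and 16). Pou5f1, the pluripotency factor OCT4, stood at 5.22 and 4.72 from 16 and 12 fragments, and Nanog had 3 and 3 fragments. Cdx2, Elf5 and Sox17 had none. Of 16 blastocyst genes 7 (43.8%) were detected (median 0.71 FPKM), with Lgals1 highest (33.9 and 57.5).

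Markers of cells that could have come with the embryos were mostly at or near 0. The 13 cumulus and granulosa markers summed to 9 fragments in library 1 and 12 in library 2, or 6.6 and 10.6 CPM, and 1 gene, Tnfaip6, reached 1 FPKM in both (4 and 4 fragments). Of the others, Cyp19a1 had 1 and 5 fragments, Star 2 and 3, Cyp11a1 and Ptgs2 1 and 0 each, and 8, among them Amh, Fshr and Foxl2, had none. The 13 sperm markers summed to 15 and 14 fragments, with Prm2 (6 and 2) and Oaz3 (9 and 9) reaching 1 FPKM, and the 9 blood markers to 28 and 35, with Cd74 (19 and 21) and Hba-a1 (8 and 12) reaching it. None of 13 liver, nerve, muscle and skin markers reached 1 FPKM in both libraries. In pooled samples, fewer cells of a type and less RNA per cell cannot be told apart.

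Mitochondrially encoded RNA took 6.4% of fragments in library 1 (Wilson 95% interval 6.36 to 6.44%) and 6.47% in library 2 (6.43 to 6.52%), and 13.9% and 14.3% of TPM. These shares cover 13 protein-coding and 22 tRNA genes, and the mitochondrial rRNA genes were not analysed here. The intervals cover counting error only, since the fragments carry no molecular identifiers. mt-Cytb alone gave 21140 and 21136 FPKM, mt-Nd1 14698 and 14612, and mt-Nd2 7399.6 and 7591, the last 2 being subunits of complex I. The catalytic subunit of complex IV, mt-Co1, was at 5964 and 5617 and mt-Nd4 at 3118 and 3689. mt-Nd6, read from the other strand, was at 1105 and 1036. mt-Nd5 stood at 1931 and 2138. Among the tRNA genes mt-Tq (1466 and 1457) and mt-Tl1 (1232 and 1379) were highest, followed by mt-Tp (1127 and 1373), each over at most 75 bases and from at most 142 fragments. These tRNA genes lie beside or near abundant mitochondrial mRNA genes, so a fragment there is not evidence of a mature tRNA. Whether counting used the strand is not given in the sources used here, so levels of the minus-strand genes mt-Tq, mt-Tp and mt-Nd6 are uncertain. The 2 highest genes, mt-Cytb and mt-Nd1, were close to equal in both pools.

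The other mitochondrial genes stood far lower, although all 13 are cut from long precursor RNAs. mt-Atp6 had 34.5 and 32.5 FPKM, mt-Co3 31.8 and 13.5, and mt-Co2 23.6 and 15.5. mt-Nd3 had 2 and 0 fragments and mt-Nd4l 0 and 1. Each of these 5 genes shares 98.0 to 100% of its 50-base sequences with another gene, and the nearest is a nuclear pseudogene on chromosome 1. mt-Co2 and its copy Gm28661 have 0 differences over 681 aligned bases, mt-Co3 and Gm28437 have 0 over 783, mt-Atp6 and Gm10925 have 0 over 678, mt-Nd4l and Gm10222 have 0 over 294, and mt-Nd3 and Gm28438 have 1 over 345. A stretch of 60 bases is printed as an example of sequence that cannot be assigned to 1 of the 2 genes. It lies at chrM:7313-7372 (plus strand, within mt-Co2) and again at chr1:24615206-24615265 (minus strand, within Gm28661) on GRCm38.
mt-Co2 and Gm28661: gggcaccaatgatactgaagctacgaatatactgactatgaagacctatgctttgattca
Each of the 5 copies held more fragments than its mitochondrial partner, with 85 and 75 in Gm28661 against 22 and 12 in mt-Co2, 105 and 79 in Gm28437 against 34 and 12 in mt-Co3, 100 and 107 in Gm10925 against 32 and 25 in mt-Atp6, and 161 and 176 in Gm28438 against 2 and 0 in mt-Nd3. Gm10222 had 3 and 4 fragments against 0 and 1 in mt-Nd4l. By FPKM, Gm28438 was at rank 121 of all genes. The levels of these mitochondrial genes moved with sequence sharing, whose part in them was not tested. mt-Atp8 differed from this pattern, with 2 and 1 fragments and 0% shared by this measure, which covers annotated genes only. mt-Nd4 shares 62.2% and mt-Co1 51.1% and both were abundant.

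**Figure D3:**
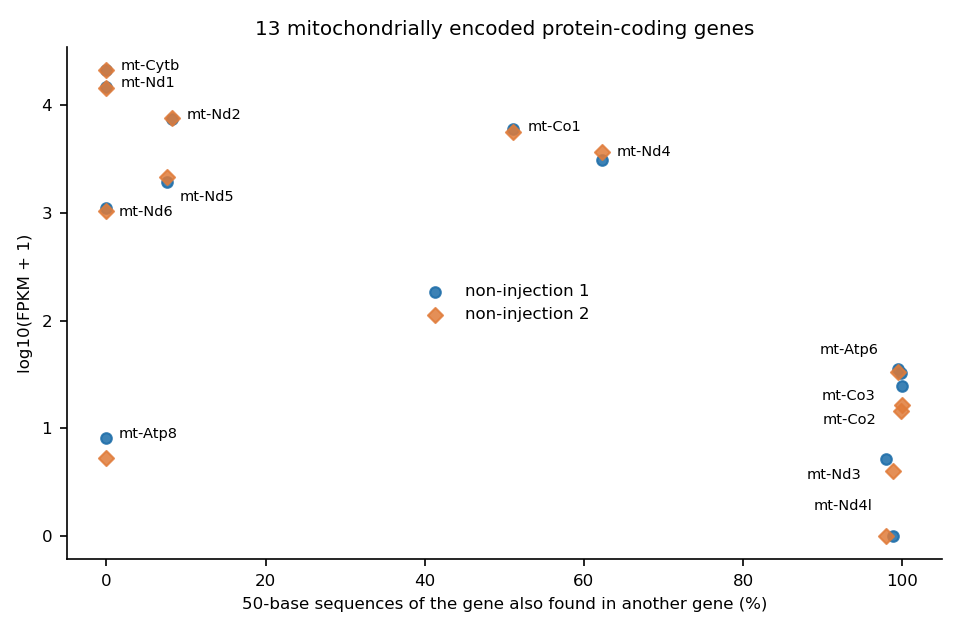
log10(FPKM + 1) of the 13 mitochondrially encoded protein-coding genes in library 1 (circles) and library 2 (diamonds) against the percent of their 50-base sequences also found in another gene. The 5 genes at 98.0 to 100% lie at or below 34.5 FPKM, 7 of the other 8 lie above 1000, and mt-Atp8 lies low at 0% shared.

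By gene type, protein-coding genes held 82.3% of TPM in library 1 and 82.2% in library 2, and 94.1% and 94.2% of fragments. Processed pseudogenes, which are intronless copies of mRNAs, held 6.84% and 6.51% of TPM and 1.61% and 1.52% of fragments. Long intergenic RNAs (lincRNA) followed with 4.10% and 4.21% of TPM, then unprocessed pseudogenes with 1.96% and 1.82%, mitochondrial tRNAs with 1.29% and 1.48%, and antisense RNAs with 0.96% and 1.12%. A share in TPM gives weight to short genes, and processed pseudogenes, with a median length of 523 bases against 3876 for protein-coding genes, held a far lower share when fragments were counted.

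**Figure D4:**
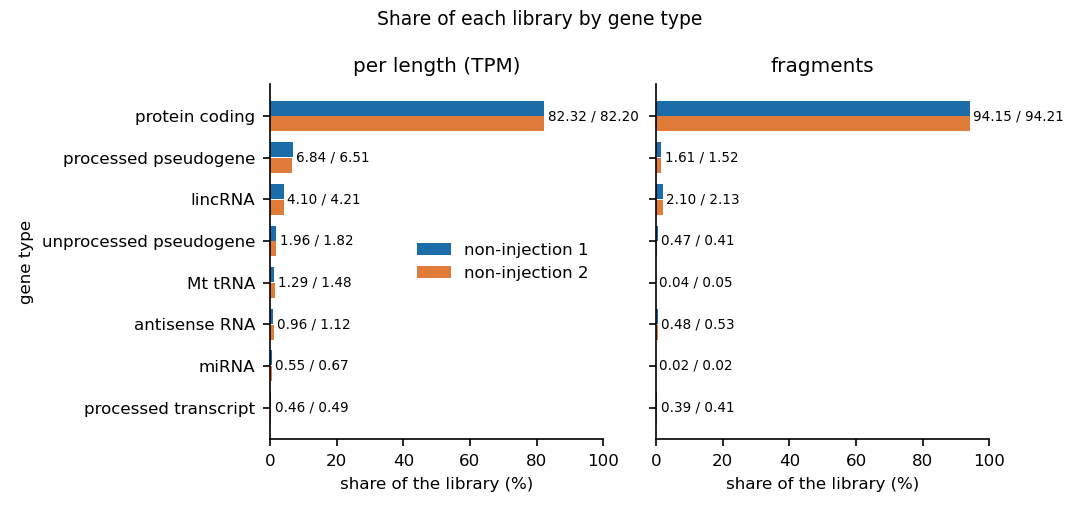
Share of each library held by the 8 leading gene types, per length (TPM, left) and as fragments (right), with library 1 in blue, library 2 in orange and both values printed beside the bars. Protein-coding genes hold 82.3% and 82.2% of TPM, and processed pseudogenes fall from 6.84% and 6.51% of TPM to 1.61% and 1.52% of fragments.

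The signal of processed pseudogenes came from a few of them. Of 8995 annotated, 811 reached 1 FPKM in both libraries and 163 had at least 10 fragments in both. The 10 highest held 54.7% of the type's TPM in library 1 and 51.5% in library 2. Gm5612 stood at 6749 and 5131 FPKM (3452 and 2176 fragments over 375 bases, chromosome 9), sixth of all genes. Gm12617 was at 3154 and 2889.6, Gm4850 at 1706 and 1663, Gm11517 at 1658 and 1572 and Gm28645 at 1153 and 1377. Gm11517 lies within Cbx1 on the opposite strand, and whether counting used the strand is not given in the sources used here, so its reads and those of Cbx1 cannot be told apart.

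Exact sharing was low for the 5 highest of these pseudogenes, although an older copy with scattered mismatches would also score low by this measure. Gm5612 shares 12.9% of its 50-base sequences with other genes, chiefly Map1lc3b of the autophagy pathway, Gm12617 3.01%, Gm4850 4.12%, Gm11517 3.25% and Gm28645 0.58%. The median over the 10 highest was 9.09%, against 31.4% over the 811 detected processed pseudogenes. Of the 163 with at least 10 fragments, 50 share under 10% and 55 share over 50%. Also among the 10 highest, AC140244.1 (448 and 456 FPKM) shares 70.6%, AC113031.2 (420.4 and 396) 64.9%, with Oog3, and Gm10343 (289 and 399) 47.2%, and their levels are uncertain for that reason.

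Among the other types, the highest lincRNA was AA545190 (1566 and 1620.4 FPKM), followed by Gm11381 (887 and 781) and C86187 (542 and 521). The highest unprocessed pseudogenes were Gm12628 (852 and 769), Gm11544 (869 and 683) and Gm11543 (439.9 and 382). Of the antisense RNAs, AC117949.2 stood at 181 and 266, Snhg9 at 128 and 217 and Arhgap20os at 194 and 143, each overlapping a gene on the other strand (Atp9b, Rps2 and Arhgap20). Gm23935, annotated as a miRNA gene of 57 bases, had 81 and 113 fragments and shares 100% of its sequence with other genes. It lies within Zc3h7a, and a fragment there is not evidence of a mature miRNA. The next miRNA genes were Gm23943 (139 and 102, from 23 and 14 fragments) and Gm24193 (72.7 and 87.7, from 12 and 12). They share 44.4% and 100% of their 50-base sequences and overlap 9130024F11Rik and Gm7240, so their levels are uncertain.

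The remaining types that held at least 0.1% of TPM were led by genes far below AA545190. The processed transcripts were led by 2810408I11Rik (189 and 179.8 FPKM), Snhg15 (101 and 102) and Gm15286 (64.1 and 114), the snoRNA genes by Snora47 (207 and 103), Gm23083 (158 and 137) and Gm22723 (131 and 165). Genes awaiting experimental evidence (TEC) were led by AA414992 (241 and 227), AC166159.1 (115 and 98.7) and Gm31579 (58.4 and 41.2). Transcribed processed pseudogenes were led by Gm5946 (170.1 and 162), Rps4l (108 and 149) and Gm5434 (130.4 and 102), and transcribed unprocessed pseudogenes by Gm44133 (197 and 134), Fbxw23 (119 and 129) and CAAA01216754.4 (103 and 78). Snora47 lies within Zbed3, whose reads it may share, and AC166159.1 shares 87.6% of its 50-base sequences.

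Listed energy genes, at differing levels, are set beside all protein-coding genes, of which 40.2% were detected (median 0.64 FPKM). The difference was not tested. Of 23 genes for the use of pyruvate, the main fuel of the early embryo, 21 (91.3%) were detected, with a median of 15.6 FPKM. The mitochondrial pyruvate carrier gene Mpc1 stood at 82.4 and 79.4 FPKM, the pyruvate dehydrogenase gene Pdhb at 81.8 and 69.2 and the isocitrate dehydrogenase gene Idh3g at 62.7 and 76.3. Of 17 glycolysis genes 13 (76.5%) were detected, with a median of 2.93 FPKM. Ldhb, the lactate dehydrogenase subunit of the egg, stood alone at 241 and 209 FPKM, and Aldoa, an aldolase, came next at 24.9 and 35.2. Gapdh, often used as a reference gene, had 6.56 and 3 FPKM (37 and 14 fragments), and the hexokinase genes Hk2 (7 and 8 fragments) and Hk1 (1 and 2) were near the limit of detection.

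Most genes of large protein complexes were detected, beside 40.2% of all protein-coding genes. All 82 cytosolic ribosomal protein genes reached 1 FPKM in both libraries (median 30.9), led by Rps27l (1135 and 1182) and Rpl41 (878 and 849), with Rpl3 lowest (6.35 and 3.4). Rpl39l and Rpl10l, paralogs best known from germ cells, stood at 147 and 201 FPKM and at 94.6 and 115. Of 88 nuclear respiratory chain genes 83 were detected (median 25.9), among them Cox6b2, the form known from testis, at 341 and 385 FPKM beside the general Cox6b1 at 177 and 141. Of 39 proteasome genes 35 were detected (median 25.6), led by Psmb1 (207 and 265), while the immunoproteasome gene Psmb8 had no fragment.

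Of replication-dependent histone genes 17 of 67 (25.4%) were detected, against 40.2% of all protein-coding genes, with a median of 0.00 FPKM and 35 without a fragment. The highest, Hist1h4c, stood at 20.6 and 24.8 from 23 and 23 fragments. Their mRNAs end in a stem-loop and not in a poly(A) tail, and 34 of the 67 share over 50% of their 50-base sequences. The cDNA kit used primes on poly(A) tails, and the part of either in these levels was not tested.

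For 13 genes with an oocyte form and a general form, the 2 forms were set side by side. The oocyte form was higher in both libraries for 5 pairs, the general form for 7, and the order differed between the libraries for 1. H1foo (123 and 98.7 FPKM) exceeded the linker histone H1f0 (14.4 and 15.9), and Wee2 exceeded Wee1 (15 and 15.3). Cnot6l exceeded Cnot6 (22.5 and 18.5), Taf4b exceeded Taf4 (20 and 18), and the DNA demethylase Tet3 (7.11 and 6.30) exceeded Tet1 (1.99 and 2.12). In contrast, the general cap-binding protein Eif4e (214 and 199.9) was far above Eif4e1b (21.1 and 22). Likewise Ybx1 (53.0 and 66.4) was above Ybx2, Pabpc1 (17 and 18.4) above Pabpc1l (3.50 and 0.65), and Aurka (117 and 121) above Aurkc (31.8 and 29.0). Aurkc shares 54.8% of its 50-base sequences with other genes and Aurka 0%, so the order of this pair is uncertain. Ctcf (38.9 and 47.7) was above Ctcfl, which had 1 and 0 fragments, and Cpeb4 (19.8 and 21.9) above Cpeb1. Tbp (15.2 and 14.1) was above Tbpl2 (10.6 and 10.3), by less than 1.5 times in each library. Npm2 and Npm1 changed order, at 254 against 300.1 in library 1 and 344 against 255 in library 2. Oocyte and general forms thus each led in some pairs.

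Some of the most abundant genes lay next to each other. Among the 200 highest genes with at least 10 fragments in each library, 35 nuclear genes fell into 14 groups with gaps of at most 50 kb. Omt2a, Omt2b and Dppa5a on chromosome 9 together held 3.26% of TPM in library 1 and 2.73% in library 2. The Tcl1 group of 5 genes on chromosome 12 (Tcl1, Tcl1b1, Tcl1b2, Tcl1b3 and Tcl1b4) held 2.13% and 1.86%. Oosp1 and Oosp3 on chromosome 19 held 1.06% and 0.98%. A group of 5 genes around A430060F13Rik on chromosome 11 held 0.53% and 0.48%. Within such groups members can share sequence, as Omt2b does for 35.2% of its 50-base sequences, mostly with Omt2a. How often 200 genes would lie this close was not tested.

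High levels went with short genes. Nuclear protein-coding genes between 10 and 100 FPKM had a median exon length of 3462 bases (n = 3314), those between 100 and 1000 had 1981 bases (n = 519), and the 24 at 1000 or more had 1296 bases. Those above 0 and under 1 FPKM had 4429 bases (n = 5101). The number of exon blocks fell in the same order, from a median of 10 to 8, 6 and 5. FPKM divides by the length of all annotated exons, so a gene whose long annotated exons are not used is understated, and the part of this in the pattern was not tested.

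The 2 libraries ranked genes alike. Across the 15570 genes above 0 in both, the Spearman correlation was 0.926 and the Pearson correlation of log2(FPKM + 1) was 0.956. Across the 8231 genes with at least 10 fragments in both they were 0.961 and 0.971. The points are genes, which are not replicates, and share library and length. Of the 30 highest genes of each library 26 were shared, of the 100 highest 90, and of the 500 highest 444. A further 6038 genes were above 0 in 1 library only, and 5487 of these had at most 3 fragments there.

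The spread between the libraries was set beside that from counting. The counting SD treats every fragment as an independent molecule, which amplified fragments are not, and is therefore a lower limit. Among 129 genes with a mean of at least 1000 fragments the SD of the log2 ratio was 0.23, against 0.05 from counting. Among 3295 genes with a mean of 10 to 30 fragments and a value above 0 in both it was 0.86, against 0.54. In these classes 1 gene (0.78%) and 711 genes (21.6%) differed by over 2-fold. A 2-fold difference of a low gene thus lay near the SD between these pools.

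**Figure D5:**
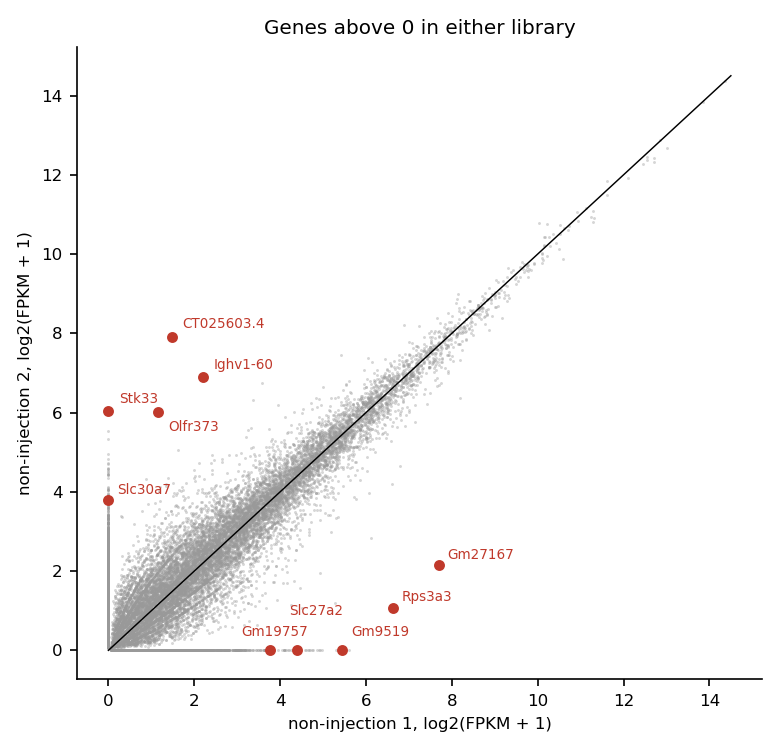
log2(FPKM + 1) of library 2 against library 1 for genes above 0 in either, with the line of equal values and, in red, the 5 genes furthest from it in each direction among those with at least 50 fragments in all. Most genes follow the line, while Stk33 (0 and 195 fragments) and Slc27a2 (103 and 0) lie on the axes.

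A few genes were abundant in 1 pool and at or near 0 in the other. Of 6221 genes with at least 50 fragments in all, 26 differed by over 4-fold on the log2(FPKM + 1) scale, 16 of them higher in library 2. Higher in library 2 were the kinase gene Stk33 with 0 fragments in library 1 and 195 in library 2, the zinc transporter gene Slc30a7 with 0 and 161, the odorant receptor gene Olfr373 with 7 and 301, the lincRNA CT025603.4 with 1 and 112 and the immunoglobulin pseudogene Ighv1-60 with 2 and 54. In library 1 the fatty acid transporter gene Slc27a2 had 103 fragments against 0, the lincRNA Gm27167 144 against 2, the ribosomal pseudogene Rps3a3 107 against 1, the pseudogene Gm9519 78 against 0 and the lincRNA Gm19757 51 against 0. A count of 0 allows up to 3 fragments. Rps3a3 shares 65.1% of its 50-base sequences with other genes, so its counts are uncertain. Overlapping genes are annotated at 7 of these 10 genes, all but Gm9519, Gm19757 and Ighv1-60, and whether counting used the strand is not given in the sources used here. The source of these differences was not tested.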

How the data were processed

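RNA was taken from pools of 5 embryos, and cDNA was made with the SMART-Seq v4 kit (11 cycles) and Nextera XT libraries (13 cycles). Per the labels and the methods of the study, reads were trimmed with Trim Galore, mapped to mm10 with STAR, and uniquely mapped reads were counted with featureCounts. The annotation release, tool versions and strand setting are not given in the sources used here. The authors deposited FPKM values per gene for 6 libraries, and the 4 libraries of injected embryos were not used here.

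Fragments were recovered from FPKM, the gene's length and the smallest step of each library, and 100% of values came out whole to within 0.001, which gave the depth of 1363928 and 1130853 fragments. The gene length equalled the union of the listed exons for all 53023 genes. TPM and CPM were computed from these. A gene was called detected at an FPKM of at least 1 in both libraries. Rank percentiles and medians are over both libraries, and logs used a pseudocount of 1. To measure sharing, all 50-base sequences of each gene's GENCODE M21 transcripts were looked up in every other gene, for 52918 genes.

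Genes named were the 30 highest with at least 10 fragments in each library, the 4 highest and 2 lowest of each list (or further members where a list or its families are described), the 3 highest of each type holding at least 0.1% of TPM, the 5 most different between libraries in each direction, and the paralog pairs. Some members were left out or added after their values were seen. The lists come from general knowledge, and members and lists were chosen with earlier results of these data known. No test was made. Computed steps were tested on simulated data. Scripts ran in Python (3.11.15) with matplotlib (3.10.9), scipy (1.17.1), pandas (2.3.3) and numpy (2.4.6). Alternatives were other detection limits, filters, units, pseudocounts, scaling, gene sets and leaving out each library.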

Additional observations from a re-analysis of the deposited data

How the results depend on the processing

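Values were recomputed under each alternative, and a value is named here where it moved by more than the SD of the 2 libraries (for correlations, more than the 95% interval over genes). The count of detected genes and the list medians without 1 of the libraries are given whether or not they moved. The count of detected genes, 11148 in both libraries, was 15403 at an FPKM of at least 0.1, 6097 at 5 and 10925 at over 3 fragments, and 13130 to 13542 in 1 library alone. Counting fragments in place of TPM put the 10 highest genes at 10.6%, the 100 highest at 25.6%, protein-coding genes at 94.2%, processed pseudogenes at 1.56% and lincRNA at 2.11%. Leaving out genes under 10 fragments gave 20.2%, 41.3%, 84.9%, 5.67% and 3.73% in the same order. Leaving out mitochondrially encoded genes put the 10 and 100 highest at 11.8% and 30.7%, and leaving out genes under 200 bases put protein-coding genes at 84.6% and lincRNA at 4.25%. The Spearman correlation was 0.759 over genes above 0 in either library and 0.961 with at least 10 fragments in both, and the Pearson correlation was 0.904 and 0.971, or 0.939 and 0.972 with a pseudocount of 0.1 and 10.

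The median percentile of the maternal and zygotic lists, 94.0 and 96.0 among all genes, was 93.2 and 95.1 by CPM, 88.0 and 91.9 among protein-coding genes and 74.9 and 83.1 among detected genes. Over detected members alone the median FPKM was 21.5 and 35.4. Without genes sharing over 50% of their 50-base sequences it was 17 and 34.2, at percentiles of 93.8 and 96.3. The zygotic lists had the higher median under each of these alternatives. Without 1 of the libraries, the maternal median was 17.9 to 18.3 FPKM and the zygotic 28.9 to 32. No paired analysis was possible because the result comes from no test.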

Other observations

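Imprinted genes, which are expressed from 1 parental copy, and genes of X inactivation and the Y chromosome varied widely in level. Of 20 imprinted genes 8 (40%) reached 1 FPKM in both libraries (median 0.93 FPKM), beside 40.2% of all protein-coding genes (median 0.64). Of 15 genes of X inactivation and the Y chromosome 5 (33.3%) reached it (median 0.48). Snrpn, expressed from the paternal copy, was highest at 27.8 and 31.5 FPKM, followed by Zrsr1 (8.49 and 14), Mest (9.48 and 9.64) and Impact (5.98 and 10.8). H19, Igf2, Dlk1 and Slc38a4 had no fragment in either library. Xist, the RNA that silences the X chromosome, had 1 and 3 fragments, and Rlim, the ubiquitin ligase that regulates it and is supplied by the egg, stood at 52 and 45.8 FPKM. The Y-linked translation factor gene Eif2s3y stood at 7.05 and 8.5 FPKM and the demethylase gene Uty at 3.82 and 3.25, while Sry had none. The Y chromosome as a whole held 0.011% of TPM in library 1 and 0.0087% in library 2, with 7 of its 1561 genes detected. Eif2s3y, with 40 and 40 fragments, shares 0% of its 50-base sequences with other genes and Uty, with 51 and 36, shares 2.12%. The source of this RNA was not tested.

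DNA methylation genes spanned a wide range, and 8 of 10 reached 1 FPKM in both libraries. Dppa3 stood at 6001 and 5264 FPKM, whereas Dnmt3l, the cofactor of the de novo enzymes, stood at 17.9 and 20.7, Uhrf1, which guides Dnmt1, at 10.8 and 6.64, and the de novo enzyme genes Dnmt3a at 5.07 and 4.62 and Dnmt3b at 2.01 and 1.21. Tet2 had 6 and 12 fragments. Tdg, the glycosylase that removes oxidised methylcytosine, had none, and 41.2% of its 50-base sequences occur in another gene.

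Between the libraries, proteasome genes were higher in library 2 for 26 of 35 with at least 20 fragments (median log2 ratio 0.27) and nuclear respiratory genes for 50 of 72 (0.22), whereas two-cell transient genes were lower in library 2 for 18 of 25 (-0.16) and Obox genes for 7 of 7 (-0.33), beside 5073 of 9015 genes overall (0.06). The cause was not tested.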
